A study of Mus musculus with 12 samples.

Results

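The genes described here encode the core of the Notch pathway, namely the receptors Notch1, Notch2 and Notch3, the ligands Jag1, Jag2, Dll1 and Dll4, and the target genes Hes1, Hey1 and Heyl. A region of either histone mark was assigned to one of these 10 genes, of 21924 protein-coding genes in the annotation, when it overlapped the GENCODE gene body extended by 20 kb on each side. This gave 38 regions of 59664 in all, 19 of 31617 for H3K27ac and 19 of 28047 for H3K27me3. H3K27ac regions lay at 9 of the 10 genes, all but Heyl, and H3K27me3 regions lay at 9 of the 10, all but Jag1.

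Notch signalling passes between cells that touch each other. A ligand on a neighbouring cell binds the receptor, proteases then release the intracellular domain of the receptor, and this domain enters the nucleus, joins the DNA-binding protein RBPJ and activates target genes, of which the Hes and Hey transcriptional repressors are the best known. In the bone marrow stroma the pathway is known to hold mesenchymal progenitors in an undifferentiated state and to restrain the formation of osteoblasts. The mark H3K27ac, acetylation of lysine 27 of histone H3, is found at active promoters and enhancers, while H3K27me3, trimethylation of the same residue by Polycomb complexes, is found at repressed developmental genes.

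CUT&RUN, in which an antibody tethers a nuclease to a chromatin mark so that the DNA beneath the mark is cut out and sequenced, was performed for both marks on cultured mouse mesenchymal stem cells (MSCs). Young cells came from mice aged 3 to 5 months and old cells from mice aged 18 to 22 months, and all cells were grown at 2% oxygen. The 12 libraries formed 4 groups of 3, and per the labels each cell suspension was divided between the antibodies, so that age was the only factor compared and no other treatment, strain or genotype was named in the labels. The labels do not say whether the 3 samples of a group came from separate animals, so the p-values measure the spread between these samples, which may be technical.

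Values are given as RPM, the reads in a region per 1000000 reads of the library after scaling of the libraries to each other, and levels of different regions are compared as RPM per kb. Where 3 values of a group are listed, they stand for replicates 1, 2 and 3 in that order, and coordinates are those of the build mm10. The H3K27ac libraries held 2750953 to 5541429 reads and the H3K27me3 libraries 3622108 to 9947515 reads, and old replicate 2 had the fewest reads for either mark. Regions held 33.4% to 41.4% of the H3K27ac reads, with overlapping ranges in young and old cells, but 62.3% to 66.6% of the H3K27me3 reads in young and 53.8% to 60.8% in old cells. The label of the cells was checked on marker genes. The transcription start site (TSS) was covered by H3K27ac at 9 of 9 MSC markers, among them Pdgfra, Ly6a and Prrx1, and at 0 of 6 endothelial and 0 of 6 blood cell markers. It was also covered at 3 of 4 markers of vascular smooth muscle and pericytes, which are described with Notch3. Of the 9 MSC markers, 1, Lepr, had H3K27me3 over the TSS as well. This H3K27me3 signal was 27.5 to 29.7 RPM in young and 26.6 to 31.0 RPM in old cells.

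The sequences at the start sites are shown first, because the mark that covers them divides the family. The RefSeq promoter table (build GRCm38.p6, 250 bases before to 50 bases after a start) matched 7 of the 10 genes with 8 entries, and held no entry for Hes1, Hey1 and Heyl. A receptor and a ligand under H3K27ac, Notch2 (chr3:98013288-98013587, plus strand) and Jag1 (chr2:137116471-137116770, minus strand), are set beside a receptor and a ligand under H3K27me3, Notch3 (chr17:32166841-32167140, minus strand) and Dll4 (chr2:119325534-119325833, plus strand). Each is printed in the direction of transcription, and capitals mark CpG dinucleotides.
Notch2: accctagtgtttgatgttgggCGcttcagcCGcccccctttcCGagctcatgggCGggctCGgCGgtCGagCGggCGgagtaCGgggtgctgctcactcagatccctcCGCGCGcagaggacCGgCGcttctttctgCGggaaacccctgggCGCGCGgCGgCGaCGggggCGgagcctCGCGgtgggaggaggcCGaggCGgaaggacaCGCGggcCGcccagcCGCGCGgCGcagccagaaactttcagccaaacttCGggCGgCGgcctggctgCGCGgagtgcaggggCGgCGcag
Jag1: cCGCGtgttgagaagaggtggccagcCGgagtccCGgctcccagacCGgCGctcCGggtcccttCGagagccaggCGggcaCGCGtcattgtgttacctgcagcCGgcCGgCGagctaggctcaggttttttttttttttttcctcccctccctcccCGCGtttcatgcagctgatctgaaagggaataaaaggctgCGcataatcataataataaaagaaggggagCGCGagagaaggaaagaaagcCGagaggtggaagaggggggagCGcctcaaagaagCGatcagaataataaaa
Notch3: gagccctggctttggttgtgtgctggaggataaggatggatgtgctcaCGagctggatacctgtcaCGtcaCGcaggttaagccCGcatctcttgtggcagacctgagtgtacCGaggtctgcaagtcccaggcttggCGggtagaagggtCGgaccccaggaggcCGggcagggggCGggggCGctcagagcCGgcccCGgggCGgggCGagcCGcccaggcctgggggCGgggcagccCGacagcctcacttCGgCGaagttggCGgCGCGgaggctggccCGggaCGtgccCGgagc
Dll4: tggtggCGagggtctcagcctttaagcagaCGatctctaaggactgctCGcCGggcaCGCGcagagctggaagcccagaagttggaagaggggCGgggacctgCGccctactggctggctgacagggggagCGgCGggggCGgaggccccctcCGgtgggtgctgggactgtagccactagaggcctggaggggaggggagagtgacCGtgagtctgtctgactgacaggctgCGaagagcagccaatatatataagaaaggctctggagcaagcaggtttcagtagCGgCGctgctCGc
Both classes of start were rich in CpG. The windows held 41 CpG dinucleotides at Notch2 and 22 at Jag1 under H3K27ac, and 25 at Notch3 and 17 at Dll4 under H3K27me3, where the median over 32851 promoters of the table was 7. The most CpG-rich window of the family was that of Jag2, with 63, and it lay under H3K27me3. The RBPJ motif GTGGGAA, searched on both strands, was present in 6.38% of all promoters of the table and in 0 of the 8 entries of these genes. The E-box CACGTG, the same on both strands and with a CpG of its own, was present in 7.15% of all promoters and also in 0 of the 8 entries. That these letters were not found in such a short window says nothing about binding of a factor.

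The marks divided the start sites of the pathway. H3K27ac covered the TSS of Notch1, Notch2, Jag1, Hes1 and Hey1, which is 5 of 10 genes against 50.0% of all protein-coding genes. H3K27me3 covered the TSS of Notch3, Jag2, Dll1, Dll4, Hey1 and Heyl, 6 of 10 genes against 28.4% of all. Hey1 was the single gene with both marks over its start, a state found at 3.17% of protein-coding genes, and no member lacked both. Within the windows, H3K27ac regions had a median length of 6 kb, against 4 kb over all regions of the mark, and H3K27me3 regions one of 27.5 kb, against 10.5 kb.

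**Figure D1:**
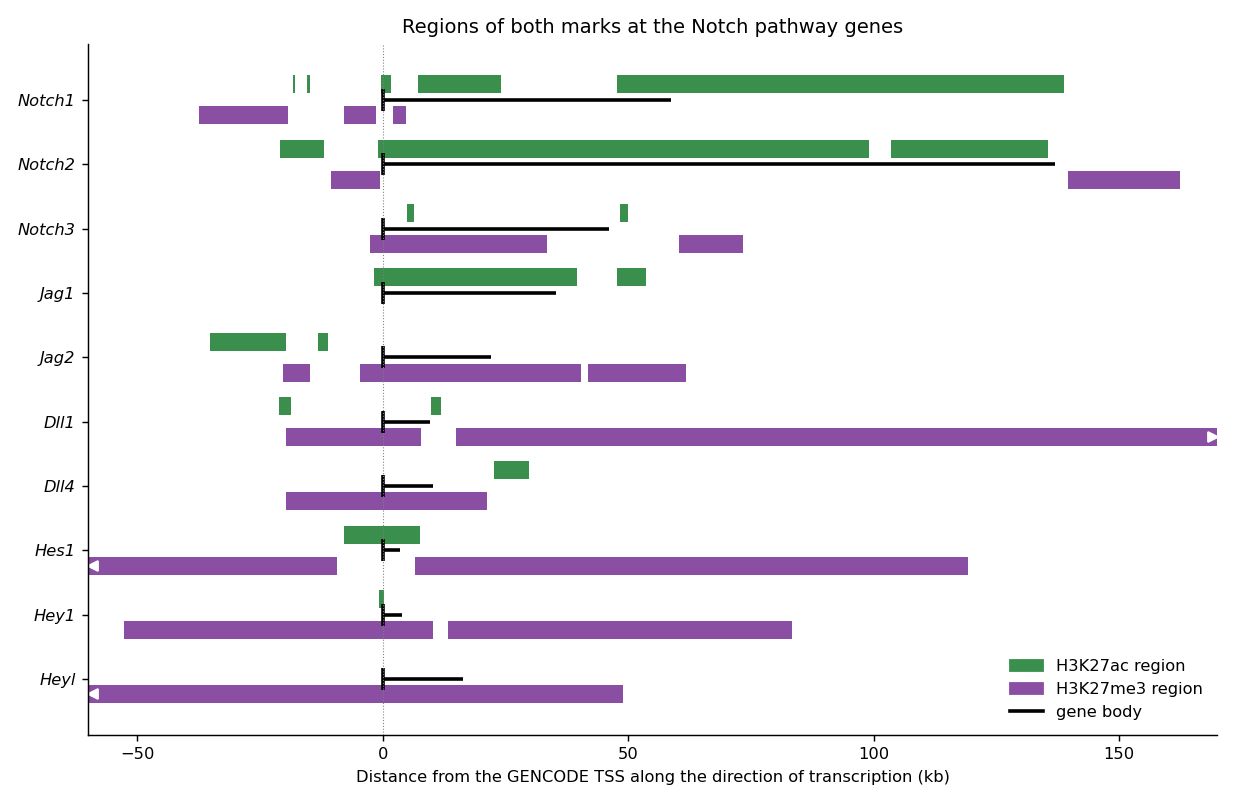
Regions of H3K27ac (green) and H3K27me3 (purple) within 20 kb of each gene body (black line, with a tick at the TSS), drawn to scale by distance from the GENCODE TSS in kb along the direction of transcription. White arrowheads mark regions that continue beyond the axis. Hes1 lies in an H3K27ac region between H3K27me3 domains on both sides, Notch2 and Jag1 are covered by H3K27ac, and Jag2, Dll4, Hey1 and Heyl lie wholly within H3K27me3.

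Among the H3K27ac regions over a GENCODE start, signal density in young cells was highest at Hey1 (1.55 RPM per kb), followed by Notch2 (1.42), Hes1 (1.052), Jag1 (0.916) and Notch1 (0.889). The values of Hey1 and Notch1 rested on few reads, 8, 7 and 8 and 12, 6 and 10 in the young libraries. The Notch1 region over the RefSeq start is not part of this order and had 1.096 RPM per kb in young cells. The young libraries of Hes1 (0.927 to 1.21 RPM per kb) lay below those of Notch2 (1.30 to 1.51) and Hey1 (1.31 to 2.02). Hey1 and Notch2 overlapped each other, and so did Hes1, Jag1 (0.904 to 0.937) and Notch1 (0.822 to 0.980). In old cells Hes1 stood at 1.41 RPM per kb (1.33 to 1.52) and Notch2 at 1.39 (1.34 to 1.46), so that their ranges overlapped. The order of H3K27me3 density over the starts in young cells was Dll1 (2.60 RPM per kb), Heyl (2.06), Dll4 (1.49), Jag2 (1.40), Hey1 (1.23) and Notch3 (0.751). Of these neighbours, Dll4 (1.43 to 1.57) and Jag2 (1.34 to 1.45) overlapped in young cells, and the others did not. The same order held in old cells, from 2.17 RPM per kb at Dll1 to 0.917 at Notch3, but there the range of every neighbour overlapped the next except between Heyl (1.64 to 2.03) and Dll4 (1.23 to 1.53) and between Hey1 (1.112 to 1.20) and Notch3 (0.814 to 1.106).

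**Figure D2:**
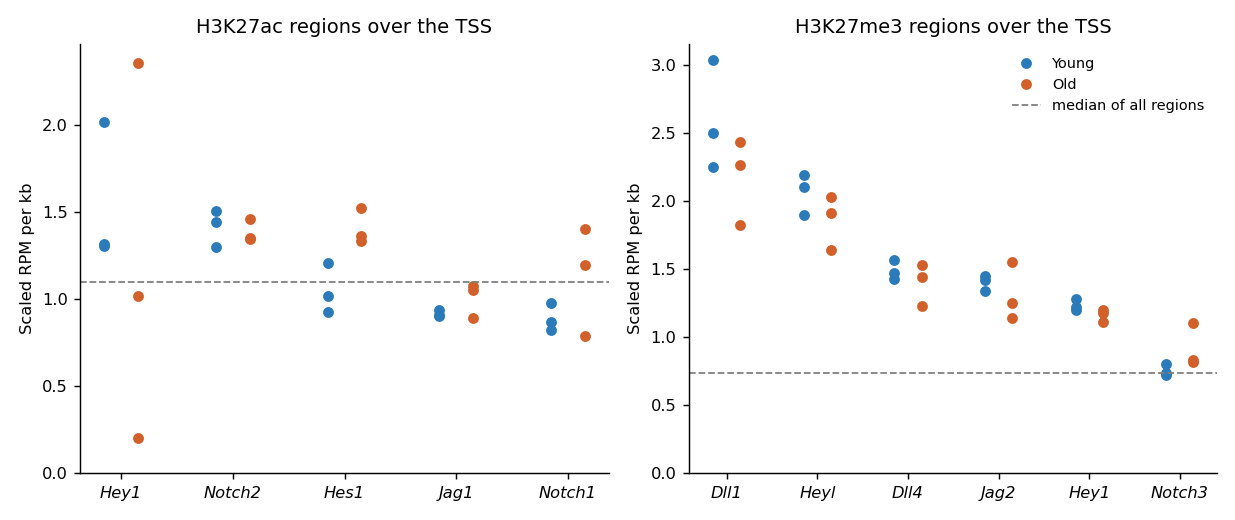
Signal density (RPM per kb, y axis from 0) of the region over the TSS of each gene, for H3K27ac on the left and H3K27me3 on the right, with 1 point per library, young in blue and old in orange. The dashed line is the median of all regions of the mark, 1.10 RPM per kb for H3K27ac and 0.737 for H3K27me3. Dll1 and Heyl lie far above that line for H3K27me3, and the points of Hey1 for H3K27ac are widely spread.

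The comparison of old with young cells asked whether age altered either mark at these genes. No region of the family passed the threshold in the fit over all regions of its mark, and in each mark the smallest p-value was found at Hes1, where the old values were higher for H3K27ac over the gene and lower for H3K27me3 in the domain upstream. In bulk libraries such as these, a mark carried by more or fewer of the cells and a mark that is stronger or weaker in each cell cannot be told apart. For H3K27ac, 0 of 19 regions were called at an adjusted p under 0.05 by limma or by edgeR, where limma called 0.0822% and edgeR 0.304% of all H3K27ac regions. DESeq2 gave an adjusted p to 3 of the 19 and called 0 of them, against 0.214% of all regions with one. At an unadjusted p under 0.05 there were 2 of 19, those at Hes1 and in the 3′ part of Notch2, against 9.6% of all. In the same 2 regions every old library lay above every young library, against 7.09% of all regions, and in 0 of 19 every old library lay below, against 7.42%. Old cells were higher in 13 regions and lower in 6, with a median log2 fold change of 0.13 (range -0.63 to 0.54) where the median of all H3K27ac regions was -0.0028 and 49.6% of them were higher.

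For H3K27me3, 0 of 19 regions were called by limma, where it called 0.488% of all H3K27me3 regions, and 1 of 19, the upstream domain of Hes1, was called by edgeR on the recovered reads, against 1.4% of all regions. DESeq2 called the same domain, 1 of the 14 regions of these genes to which it gave an adjusted p, against 0.897% of all regions with one. Unadjusted p-values under 0.05 were found in 3 of 19 regions, at Hes1, Dll1 and Notch3, against 13.9% of all. Every old library lay above every young library in 2 of 19, at Notch2 and Notch3, against 8.56%, and below in 2 of 19, at Hes1 and Hey1, against 10.6%. Old cells were lower in 14 regions and higher in 5, with a median log2 fold change of -0.09 (range -0.71 to 0.27) beside -0.0077 for all H3K27me3 regions, 48.6% of which were higher in old cells. With the signal as deposited, before scaling, the median of all regions was itself -0.12 for H3K27ac and -0.13 for H3K27me3, and the medians of these genes were 0.02 and -0.22, so the distance from the background differed little between the scales. For sums per gene, every region touching a window entered with its whole signal, also beyond the window. In these sums 0 of 9 genes were called for H3K27ac by limma, edgeR or DESeq2, against 0.531% of 15832 genes with limma. For H3K27me3, 0 of 9 were called as well, against 0.394% of 15220. At an unadjusted p under 0.05 limma counted 1 of 9 genes in each mark, Hes1 both times, against 10.9% of all genes for H3K27ac and 14.5% for H3K27me3, so the counts stood near the background. DESeq2 also counted Hes1 alone in each mark, against 4.24% and 11% of all genes. With edgeR Hes1 was counted for H3K27ac, against 10.3%, and Hes1 and Notch2 for H3K27me3, against 16.6%.

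**Figure D3:**
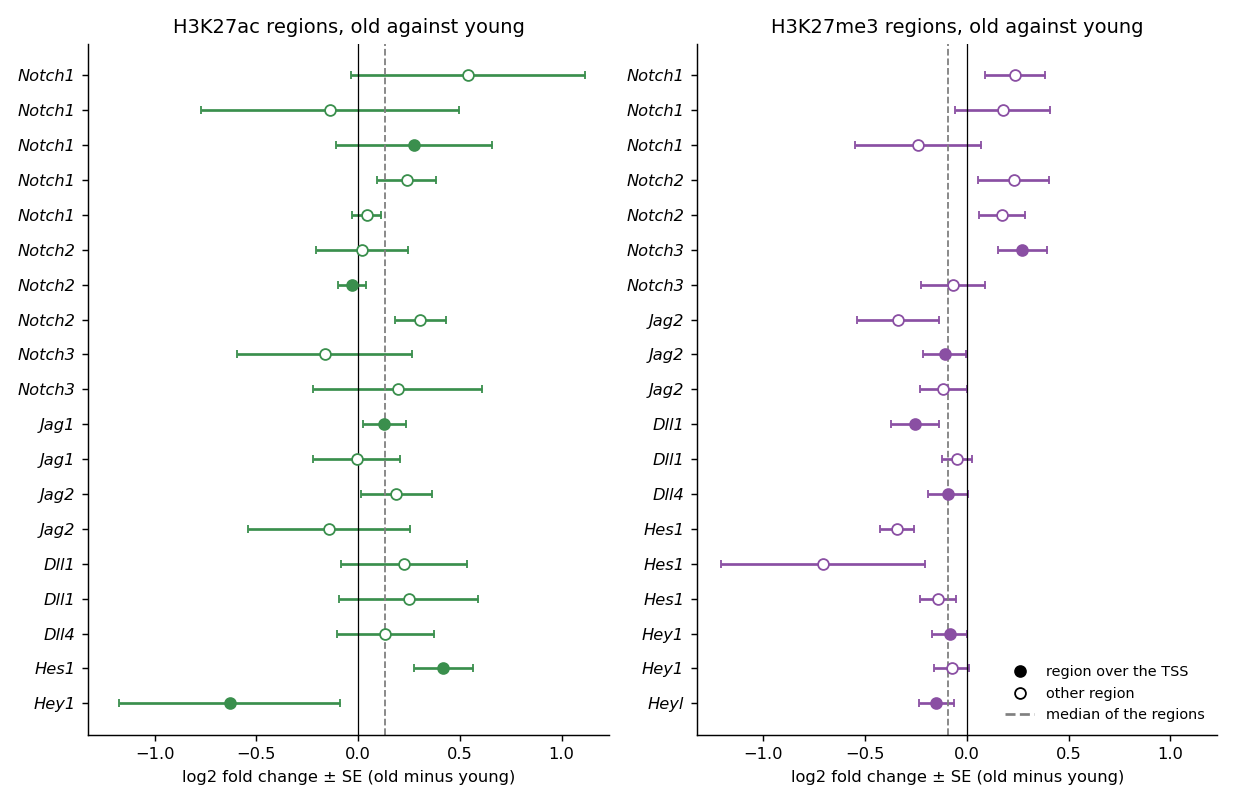
Log2 fold change of old against young cells with its standard error for the 19 H3K27ac regions (left) and the 19 H3K27me3 regions (right), ordered by gene and, within a gene, from upstream to downstream. Filled points are regions over the TSS, and the dashed line is the median of the family, 0.13 for H3K27ac and -0.09 for H3K27me3. Hes1 lies to the right of 0 for H3K27ac and to the left for H3K27me3.

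The receptors Notch1 and Notch2, which signal in many tissues, carried H3K27ac over 50.6% and 95.7% of their gene bodies. Notch3, best known from vascular smooth muscle and pericytes, carried H3K27me3 over 72.5% of its gene body. At Notch2 a region of 100.0 kb (chr3:98012501-98112500) covered the TSS and most of the exons and introns. It held 129.8, 145 and 151 RPM in young and 146, 134 and 135 RPM in old cells. The groups overlapped, with 142 ± 10.8 RPM in young and 139 ± 6.55 RPM in old cells (SD, n = 3), and the difference was not called (log2 fold change -0.03 ± 0.07 SE, limma, adjusted p = 0.926). A further region over exons, introns and UTR sequence of the 3′ part (chr3:98117001-98149000) held 23.4, 22.5 and 21.05 RPM in young and 26.1, 26.3 and 30.6 RPM in old cells. Here all old libraries lay above all young libraries, with 22.3 ± 1.17 RPM in young and 27.7 ± 2.51 RPM in old cells (SD, n = 3), yet the difference did not pass the threshold (log2 fold change 0.31 ± 0.13 SE, limma, adjusted p = 0.419). By RPM per kb this region was weak and ranked above only 7.45% of all H3K27ac regions. Whether the log2 fold changes of the 5′ and 3′ parts, -0.03 and 0.31, differ from each other was not tested. The third H3K27ac region, about 12 kb upstream, had a log2 fold change of 0.02, which turned to -0.10 with the signal as deposited.

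H3K27me3 was limited to the flanks of Notch2. A region of 10.0 kb ended 0.53 kb before the TSS (chr3:98003001-98013000) and shared 0.50 kb with the H3K27ac region, with 7.9, 8.65 and 7.32 RPM in young and 7.31, 10.5 and 10.6 RPM in old cells and overlapping groups (log2 fold change 0.23 ± 0.17 SE, limma, adjusted p = 0.59). Downstream, a region of 23.0 kb that also covered the TSS of Adam30 (chr3:98153001-98176000) held 19.6, 20.8 and 20.3 RPM in young and 22.05, 23.9 and 22.5 RPM in old cells. The old libraries were all slightly above the young ones there, but the difference was not called (log2 fold change 0.17 ± 0.11 SE, limma, adjusted p = 0.522).

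At Notch1 the annotated 5′ end and the RefSeq start lay 12.8 kb apart, and each had an H3K27ac region of its own. The region over the RefSeq start, inside the GENCODE gene (chr2:26492501-26509500), held 16.99, 21.6 and 17.3 RPM in young and 18.7, 25.6 and 21.9 RPM in old cells, with overlapping groups (log2 fold change 0.24 ± 0.15 SE, limma, adjusted p = 0.64). The 2.00 kb region over the GENCODE 5′ end (chr2:26515001-26517000) rested on 12, 6 and 10 reads in the young libraries and 12, 4 and 11 reads in the old libraries, and its means were 1.78 ± 0.163 RPM in young and 2.26 ± 0.626 RPM in old cells (SD, n = 3) (log2 fold change 0.28 ± 0.38 SE, limma, adjusted p = 0.871). Most of the summed H3K27ac signal at Notch1 came from a 91.0 kb region that overlapped the 3′ end of the gene and lay mostly beyond it. It reached from 47.7 to 138.7 kb downstream of the TSS of a gene of 58.8 kb. This region also covered the starts of Entr1, Inpp5e, Pmpca, Sec16a and Snapc4, and it differed by a log2 value of 0.04, or -0.08 with the signal as deposited. The remaining regions were both 0.50 kb long with 1 to 7 reads per library. H3K27me3 formed 3 regions around the 5′ end, none over a start, and the nearest to the TSS (chr2:26518001-26524500, 1.34 kb upstream) held 4.54, 2.82 and 4.58 RPM in young and 5.13, 4.83 and 3.49 RPM in old cells. Its groups overlapped, as did those of the others, and the log2 fold changes of the 3 regions lay between -0.24 and 0.24.

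Notch3 lay under H3K27me3 from before its TSS to 33.4 kb into the gene (chr17:32133501-32169500). This region held 25.97, 26.4 and 28.8 RPM in young and 29.9, 39.8 and 29.3 RPM in old cells. The old libraries were all above the young ones, old replicate 2, the library with the fewest reads, being far above the rest, with 27.03 ± 1.52 RPM in young and 33.01 ± 5.9 RPM in old cells (SD, n = 3) and no call (log2 fold change 0.27 ± 0.12 SE, limma, adjusted p = 0.309). Without old replicate 2 the log2 fold change was 0.13. An intronic H3K27ac region of 1.50 kb (chr17:32160501-32162000) lay wholly inside the H3K27me3 region and rested on 9, 7 and 10 reads in the young libraries and 6, 3 and 9 reads in the old libraries, and a second of the same length lay downstream of the gene. Neither differed beyond its error (log2 fold changes -0.16 ± 0.43 and 0.20 ± 0.42 SE). Of the smooth muscle and pericyte markers, 3 of 4 had H3K27ac over the TSS (Acta2, Myh11 and Cspg4, not Rgs5), with summed signal of 162 to 171 RPM in young and 172 to 178 RPM in old cells. H3K27me3 also lay over the TSS of 3 of 4 (Myh11, Rgs5 and Cspg4, not Acta2). Its summed signal was 528 to 566 RPM in young and 485 to 555 RPM in old cells.

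The ligands were divided between the marks as well. Jag1, a Jagged-type ligand expressed by stromal cells and osteoblasts, was wholly covered by H3K27ac and had no H3K27me3 region within 20 kb, while the starts of Jag2, Dll1 and Dll4 lay in H3K27me3. The H3K27ac region over Jag1 (chr2:137077001-137118500, 41.5 kb) held 38.9, 37.5 and 37.7 RPM in young and 43.6, 36.96 and 44.6 RPM in old cells. Young libraries were close together, old replicates 1 and 3 lay above them and old replicate 2 below, and the means of 38.01 ± 0.748 RPM in young and 41.7 ± 4.16 RPM in old cells (SD, n = 3) did not differ beyond that spread (log2 fold change 0.13 ± 0.11 SE, limma, adjusted p = 0.746). A 6 kb region downstream of Jag1 showed a log2 fold change of -0.01 ± 0.21 SE.

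Jag2, the second Jagged-type ligand, lay wholly inside a 45.0 kb H3K27me3 region (chr12:112889501-112934500) with 60.3, 63.98 and 65.3 RPM in young and 56.2, 69.7 and 51.2 RPM in old cells. The groups overlapped, with the highest and the lowest library both old (log2 fold change -0.11 ± 0.11 SE, limma, adjusted p = 0.697). The other H3K27me3 regions of the window, one downstream and one upstream, had log2 fold changes of -0.12 ± 0.12 and -0.34 ± 0.20 SE. Within 20 kb, H3K27ac was found only upstream of Jag2, and the nearest region (chr12:112941001-112943000), which covered the TSS of the neighbour Nudt14, held 10, 9 and 13 reads in the young libraries and 5, 7 and 9 reads in the old libraries (log2 fold change -0.14 ± 0.40 SE, limma, adjusted p = 0.944).

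Dll1, a Delta-type ligand, had the densest H3K27me3 of the family. The region over its start (chr17:15369001-15396500, 27.5 kb, also over the TSS of Fam120b) ranked above 99.8% of all H3K27me3 regions by RPM per kb and held 61.9, 68.8 and 83.6 RPM in young and 67.01, 62.3 and 50.1 RPM in old cells. The old mean was lower, 71.4 ± 11.1 RPM in young and 59.8 ± 8.73 RPM in old cells (SD, n = 3), with overlapping groups and no call (log2 fold change -0.26 ± 0.12 SE, limma, adjusted p = 0.336). The log2 fold change was -0.14 without young replicate 3 and -0.13 without old replicate 3. Downstream, an H3K27me3 domain of 293 kb, the longest of the 38 regions, held 404, 424 and 406 RPM in young and 404, 423 and 369 RPM in old cells, with a log2 fold change of -0.05 ± 0.07 SE. The H3K27ac region nearest to the Dll1 start lay just downstream of the gene (chr17:15365001-15367000), with 16, 6 and 16 reads in the young libraries and 16, 6 and 11 reads in the old libraries and no difference beyond its error (log2 fold change 0.25 ± 0.34 SE, limma, adjusted p = 0.869).

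Dll4, the Delta-type ligand of endothelial tip cells, was covered by 41.0 kb of H3K27me3 (chr2:119306001-119347000). This region held 58.5, 64.3 and 60.3 RPM in young and 59.2, 62.6 and 50.4 RPM in old cells. Only old replicate 3 lay clearly below the young libraries, and the groups overlapped (log2 fold change -0.09 ± 0.10 SE, limma, adjusted p = 0.724). H3K27ac appeared 12.5 kb downstream of the gene, over the TSS of Chac1 (chr2:119348501-119355500), with 6.21, 5.77 and 8.06 RPM in young and 7.37, 10.2 and 5.1 RPM in old cells (log2 fold change 0.13 ± 0.24 SE, limma, adjusted p = 0.907).

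Among the targets, Hes1, a repressor of differentiation genes and a widely used readout of Notch activity, had higher H3K27ac over the gene and lower H3K27me3 upstream in each old library than in any young library, although neither difference passed the threshold in limma. The H3K27ac region (chr16:30056501-30072000, 15.5 kb) covered the promoter, all exons and introns and both flanks of the gene. It held 14.4, 18.8 and 15.8 RPM in young and 21.1, 23.6 and 20.6 RPM in old cells. The lowest old library, replicate 3, was above the highest young library, replicate 2. The means were 16.3 ± 2.24 RPM in young and 21.8 ± 1.58 RPM in old cells (SD, n = 3), from 60 to 106 reads per library (log2 fold change 0.42 ± 0.14 SE, limma, adjusted p = 0.298). Over the alternatives of scaling, pseudocount, filter, test and left-out library, the log2 fold change of this region lay between 0.30 and 0.52 and the adjusted p between 0.203 and 0.819.

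Long H3K27me3 domains lay on both sides of this H3K27ac region. Upstream, a domain of 167.5 kb (chr16:29887501-30055000) ended 9.38 kb before the TSS and contained no start of another protein-coding gene. It held 203, 195 and 207 RPM in young and 174, 159 and 145 RPM in old cells. The 3 old values were all below the 3 young values, and the young values were close together. The means were 201 ± 6.09 RPM in young and 159 ± 14.5 RPM in old cells (SD, n = 3), and the difference came closest of all 38 regions to the threshold (log2 fold change -0.34 ± 0.08 SE, limma, adjusted p = 0.0636). The call depended on the test: the adjusted p was 0.0351 with edgeR, 0.027 with DESeq2 and 0.0261 with limma on the signal as deposited, but 0.34 with limma without the variance trend and robust moderation. Leaving out old replicate 1 also brought it past the threshold, at 0.0444, while leaving out any other library gave 0.0507 to 0.277. The log2 fold change stayed between -0.47 and -0.28.

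Downstream of Hes1, the facing domain of 111.5 kb (chr16:30072001-30183500) held 113, 121 and 134 RPM in young and 119.7, 107 and 106 RPM in old cells. Its groups overlapped through young replicate 1 and old replicate 1 (log2 fold change -0.14 ± 0.09 SE, limma, adjusted p = 0.497). A 1.00 kb region between this domain and the gene, the 1 region of the 38 that the deposited table assigns to young cells alone, held only 6, 12 and 3 reads in the young libraries and 0, 2 and 4 reads in the old libraries, where a count of 0 allows up to 3 reads, and it was not called (limma, adjusted p = 0.562). Summed over the regions of the Hes1 window, H3K27ac had a log2 fold change of 0.42 ± 0.15 SE (limma, adjusted p = 0.190) and H3K27me3 one of -0.26 ± 0.08 SE (limma, adjusted p = 0.182), with 316 to 341 RPM of H3K27me3 in young and 252 to 293 RPM in old libraries. The share of H3K27me3 reads inside regions, which was lower in all old libraries, moved with this difference, and so did the summed H3K27me3 over the starts of the endothelial markers (4 of 6 with a region, 199 to 205 RPM in young and 177 to 196 RPM in old cells) and the blood cell markers (4 of 6, 469 to 491 RPM in young and 406 to 468 RPM in old cells), while no H3K27ac region lay over a start of either list. Their part in the Hes1 result was not tested.

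**Figure D4:**
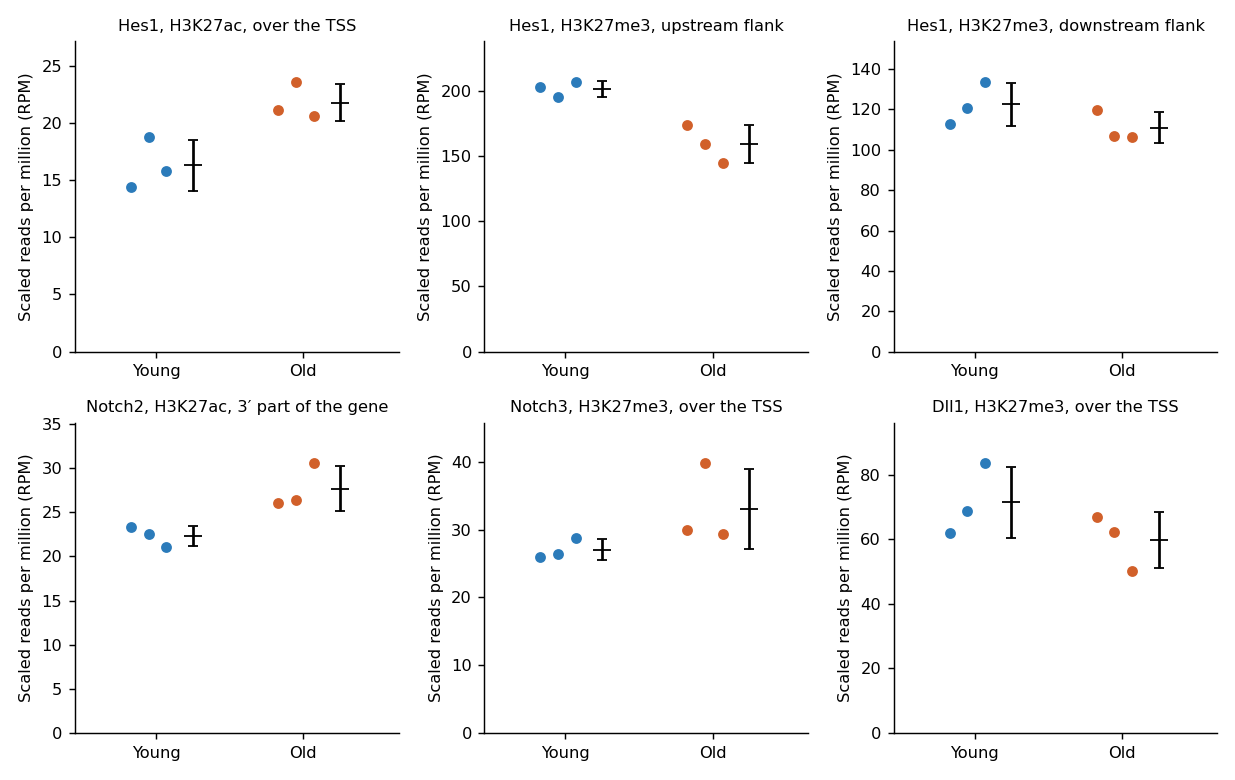
Scaled RPM of the 3 young (blue) and 3 old (orange) libraries for 6 regions, each y axis starting at 0, with the mean and SD (n = 3) in black beside the points. The groups do not overlap for H3K27ac over Hes1, H3K27me3 upstream of Hes1, H3K27ac in the 3′ part of Notch2 and H3K27me3 over Notch3, and overlap in the other 2 panels.

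Hey1, a repressor of the Hey family that acts downstream of Notch and BMP signals, carried both marks at its start. A 1.00 kb H3K27ac region over the TSS, first exon and 5′ UTR (chr3:8667001-8668000) lay wholly inside an H3K27me3 region of 63.0 kb. Its depth was low, with 8, 7 and 8 reads in the young libraries and 1, 6 and 4 reads in the old libraries. Old replicate 1 was the lowest and old replicate 2 the highest of the 6 in RPM, so the groups overlapped entirely (log2 fold change -0.63 ± 0.54 SE, limma, adjusted p = 0.76), and without old replicate 1 the log2 fold change was 0.04. The H3K27me3 region (chr3:8657001-8720000) held 80.8, 76.7 and 75.5 RPM in young and 75.4, 74.2 and 70.1 RPM in old cells. The old libraries were all below the young ones by a narrow margin, far from a call (log2 fold change -0.08 ± 0.09 SE, limma, adjusted p = 0.717). A second domain of 70.0 kb downstream of the gene had a log2 fold change of -0.07 ± 0.09 SE.

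Heyl, the third Hey-type repressor, lay inside a 141.5 kb H3K27me3 region (chr4:123141001-123282500) that also covered the starts of Hpcal4, Nt5c1a and Pabpc4, and no H3K27ac region was listed within 20 kb. The region ranked above 99.3% of all H3K27me3 regions by RPM per kb. It held 268, 297 and 310.3 RPM in young and 271, 287 and 232 RPM in old cells. The groups overlapped, with old replicate 3 the lowest library (log2 fold change -0.15 ± 0.09 SE, limma, adjusted p = 0.447).

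The balance of the marks was taken as log2 of the summed H3K27ac over the summed H3K27me3 signal of the regions touching a window. It was formed for the library pair of one age and replicate number. Each region entered with its whole signal, also where it reached beyond the window. At Dll1 the domain of 293 kb gave 404 to 424 of the 466 to 493 RPM of H3K27me3 in the young libraries. At Hes1 the domains of 167.5 and 111.5 kb entered whole as well. The balance could be computed for the 8 genes with both marks. It is a description without a test, because the tables of the marks were made separately. For the same reason a balance of 0 does not mean equal amounts of the marks. The sides named below say only which summed RPM was larger. Notch1 and Notch2 stood on the H3K27ac side, with balances of 2.65 ± 0.20 in young and 2.54 ± 0.13 in old cells (SD, n = 3) and 2.60 ± 0.08 in young and 2.42 ± 0.17 in old cells (SD, n = 3). The other 6 genes stood on the H3K27me3 side, from Jag2 at -2.86 ± 0.34 in young and -2.59 ± 0.22 in old cells (SD, n = 3) to Hey1 at -6.63 ± 0.28 in young and -7.18 ± 1.32 in old cells (SD, n = 3). The balance of Notch1 rested on the 91.0 kb region shared with its neighbours, which held 106 to 113 RPM of the 129 to 133 RPM of H3K27ac in the young libraries.

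The balances of old and young cells did not overlap at 1 gene of 8, Hes1, against 18.2% of 12412 protein-coding genes with both marks. All old pairs lay above the young ones at 1 of 8, against 12.3% of those genes, and below at 0 of 8, against 5.83%, so the counts do not stand out from the background. The balances of Hes1 were -4.43, -4.06 and -4.41 in young and -3.78, -3.48 and -3.59 in old cells. All old pairs lay nearer to H3K27ac, with means of -4.30 ± 0.21 in young and -3.62 ± 0.15 in old cells (SD, n = 3) and a difference of 0.68. Under the alternatives that still gave a value for Hes1 this difference lay between 0.62 and 0.74, and with no extension of the gene body none could be had, since no H3K27me3 region overlaps the gene itself. The differences at the other genes were -0.12 at Notch1, -0.17 at Notch2, -0.12 at Notch3, 0.27 at Jag2, 0.31 at Dll1, 0.23 at Dll4 and -0.55 at Hey1, with overlapping groups throughout. Those at Notch2 and Dll1 kept their sign under the alternatives, and the others turned. The ranges were -0.22 to 0.32 at Notch1, -0.50 to 0.43 at Notch3, -0.04 to 0.45 at Jag2, -0.08 to 0.53 at Dll4 and -0.99 to 0.07 at Hey1. Each turned when the library pairs of 1 replicate number were left out, number 2 for Notch1, Notch3 and Dll4, number 3 for Jag2 and number 1 for Hey1, and Notch1 also with no extension of the gene body. In all, 4 genes were higher and 4 lower in old cells, and the median difference was 0.05.

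**Figure D5:**
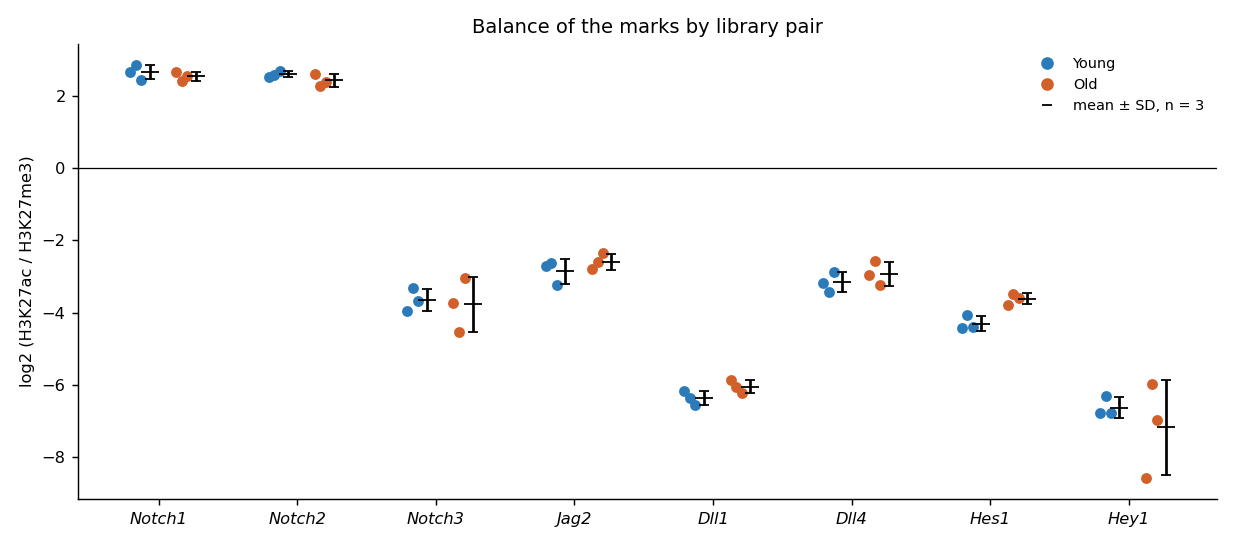
Balance of the marks, log2 of summed H3K27ac over summed H3K27me3, for each library pair of the 8 genes with both marks (young in blue, old in orange, mean and SD with n = 3 in black). Values above 0 have more summed RPM of H3K27ac than of H3K27me3. The marks were scaled separately, so 0 does not mean equal amounts. Notch1 and Notch2 lie above 0, the other genes below, and the colours separate at Hes1, 1 gene of 8, against 18.2% of all genes with both marks.

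The wider pathway was described with 44 further genes for the ligand-modifying enzymes, proteases, nuclear cofactors, regulators and remaining ligands, receptors and targets, all 44 in the annotation. Their starts carried H3K27ac at 29 of 44 genes and H3K27me3 at 13 of 44. The functional classes were not uniform. H3K27ac alone lay over the starts of the γ-secretase genes Ncstn, Aph1a, Aph1b and Psenen, whereas Aph1c had both marks. It also lay over those of the proteases Adam10 and Adam17 and of the cofactors Maml1, Maml2, Maml3, Snw1 and Spen. Among the targets, Hes6 and Hes7 had H3K27ac and Hes2, Hes3, Hes5, Hey2 and Nrarp had H3K27me3 over the start. The ligand genes Dll3, Dlk1 and Dlk2 had H3K27me3, and of the Fringe glycosyltransferases Lfng and Rfng had H3K27ac and Mfng had H3K27me3. Genes with neither mark over the annotated start included Notch4 and Rbpj, the DNA-binding partner of all receptors. Rbpj still had H3K27ac regions within 20 kb of its gene body, beside an H3K27me3 region of 2 kb. The longest H3K27ac region, of 65 kb (chr5:53588001-53653000), held 90.8 to 109 RPM in young and 90.04 to 109 RPM in old cells.

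Of 119 H3K27ac regions at these 44 genes, 0 were called by limma and by DESeq2, and 9 (7.56%) had an unadjusted p under 0.05, against 9.6% of all regions. With edgeR 3 were called, all higher in old cells, where it called 0.304% of all regions. One of these lay at Hes3. Old libraries were all above young ones in 14 regions (11.8%, against 7.09% of all regions) and all below in 4 (3.36%, against 7.42%), and the median log2 fold change was 0.06, with 74 regions higher and 45 lower. The region at Hes3, 15.2 kb downstream of its TSS and over the start of Gpr153, was not called by limma (log2 fold change 0.39 ± 0.09 SE, limma, adjusted p = 0.0914), nor was the region over the starts of Hes7, Aloxe3 and 9130213A22Rik (log2 fold change 0.82 ± 0.21 SE, limma, adjusted p = 0.136). Old libraries were all above young ones in both.

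Of 74 H3K27me3 regions at the same genes, 1 (1.35%) was called, against 0.488% of all regions, and it was lower in old cells. It lay in an intron of Maml3, a coactivator of the Notch transcription complex, 359 kb downstream of its TSS (chr3:51730501-51746500). It held 21.04, 15.8 and 17.3 RPM in young and 11.8, 9.95 and 11.1 RPM in old cells. Each old library was below each young library, with 18.03 ± 2.7 RPM in young and 10.9 ± 0.926 RPM in old cells (SD, n = 3) (log2 fold change -0.70 ± 0.14 SE, limma, adjusted p = 0.032). The call was lost when any young library was left out, with adjusted p-values of 0.264, 0.0957 and 0.198 without replicates 1, 2 and 3, and held when any old library was left out. It was also lost, at 0.165, with limma without the variance trend and robust moderation. The adjusted p was 0.00764 with edgeR, and DESeq2 gave none. In all, 12 regions (16.2%) had an unadjusted p under 0.05, against 13.9% of all regions. Old libraries were all below young ones in 11 regions (14.9%, against 10.6% of all regions) and all above in 5 (6.76%, against 8.56%), and the median log2 fold change was -0.07, with 28 regions higher and 46 lower.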

How the data were processed

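The authors deposited 1 table per mark with a signal value for every region and library. The table names call it RPKM, which the planned tests assumed, but the deposited signal was reads per 1000000 divided by a constant 0.5 kb, so that 100% of values were whole reads within 0.01 reads. RPM here is that signal times 0.5. Regions lay on a grid of 500 bp. The submitters' processing notes name Bowtie2, Picard and mm10 (GRCm38), and the region caller is not given in the sources used here. All 12 libraries were grouped by their labels.

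Columns were scaled by median ratios (RLE), and log2 of the signal plus a pseudocount of 0.5 (0.25 RPM) was modelled in limma 3.58.1 (trend, robust, two-sided) under R 4.3.3. P-values were adjusted by Benjamini-Hochberg over all regions of a mark, or over all protein-coding genes with a region within 20 kb for summed signal. Fold changes on this scale understate regions with few reads. Genes were GENCODE M21. Scripts were tested on simulated data. Alternatives included edgeR 4.0.16 and DESeq2 1.42.0 on recovered reads. Named were, per gene and mark, the region over or nearest the TSS, and regions called or with unadjusted p under 0.05 and separate groups. Of the other pathway genes, those with a called region were named, or otherwise the 3 with the smallest p, except results that are not reported here. Members, lists and tests were chosen with earlier results of these data known. The publication supplied with the series does not report these libraries and served for style.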

Additional observations from a re-analysis of the deposited data

How the results depend on the processing

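Of 107 recomputed summary values, 99 kept their side of the threshold or moved by less than the replicate spread. The median log2 fold change of the H3K27ac regions became 0.018 and that of the H3K27me3 regions -0.22 with the signal as deposited, a setting in which all regions shifted. The count of called H3K27me3 regions became 1 with the signal as deposited, with edgeR and with DESeq2, and 0 to 1 when each library was left out. The median difference in balance, old minus young, became -0.44 with no extension of the gene body, where 3 genes remained. Over the TSS alone, where Hey1 remained, this difference was -0.55. Of 597 values of single regions, 18 reversed, all without a call. With the signal as deposited these were Notch1 from 26378001 (-0.078) and Notch2 from 97992501 (-0.096) for H3K27ac. With each library left out in turn, the log2 fold change of the regions that changed sign ranged, for H3K27ac, from -0.49 to 0.20 at Notch1 from 26531501, from -0.18 to 0.26 at Notch2 from 97992501, from -0.093 to 0.015 at Notch2 from 98012501, from -0.016 to 0.49 at Notch3 from 32117001, from -0.11 to 0.075 at Jag1 from 137063001, from -0.39 to 0.24 at Jag2 from 112941001, from -0.10 to 0.38 at Dll4 from 119348501 and from -1.23 to 0.041 at Hey1 from 8667001. For H3K27me3 it ranged from -0.041 to 0.34 at Notch1 from 26518001, from -0.23 to 0.15 at Notch3 from 32093501 and from -0.091 to 0.0072 at Dll1 from 15069001. The causes were not tested. Within a mark, same-numbered young and old libraries did not deviate together (correlations of 0.066, 0.017 and -0.054 for H3K27ac and 0.025, 0.043 and -0.078 for H3K27me3). The numbers were therefore not used to pair young with old libraries. The balance put libraries of one age and number together across the marks, which these correlations do not check. With a replicate block the medians were 0.13 and -0.09, as without it, 0 regions of the 10 genes were called in either mark, and the upstream H3K27me3 domain of Hes1 had an adjusted p of 0.0809 (limma). DESeq2 gave no adjusted p to 21 of the 38 regions. The 11 regions of these genes under 3 kb held 0 to 23 reads per library.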
